A study of Homo sapiens with 21 samples.

Results

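The cholesterol and fatty acid synthesis genes described here are 31 of the 23201 genes in the deposited table. They were chosen by name for the step they serve, though with earlier results of these data known. They fall into 4 role groups. Of the genes, 8 belong to the mevalonate and isoprenoid arm and 9 to the arm from squalene to cholesterol. A further 5 belong to the sterol-sensing system of the SREBP transcription factors with a sterol carrier, and 9 to fatty acid synthesis and acetoacetate use. The series followed an epithelial-to-mesenchymal transition (EMT) in HMLE cells, a human mammary epithelial line immortalized with telomerase and viral oncoproteins, by bulk RNA sequencing. Cells of this 1 line were either untreated (d0) or treated with TGFβ, a cytokine that induces EMT, and were collected at d1, d4, d7, d10, d15 and d20 with 3 libraries at each of the 7 timepoints. The libraries of a timepoint are biological triplicates. The wells were seeded at the same density, and the untreated group was sampled at d0 alone, so that time in culture and TGFβ cannot be told apart. The libraries held between 18847917 and 22667754 reads assigned to genes. Values are normalised read counts, that is, reads per gene divided by 1 size factor per library, and they are not divided by gene length, so that a level can be compared between days but not between genes. Unless stated otherwise, a level is a mean ± SD over 3 libraries.

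The labelled cells matched their markers. All 7 mesenchymal markers were higher than at d0 on each of the 6 treated days, for example FN1, which codes for fibronectin, with a level of 4243 at d0 and 539309 at d20. Of 7 epithelial markers, between 4 and 7 were lower on each treated day; EPCAM went from 2106 at d0 to 297 at d7 and GRHL2 from 1727 to 339.8 at d20. Of the basal list, the laminin gene LAMB3 rose from 8723 at d0 to 119907 at d4. The keratin gene KRT17 rose from 39309 at d0 to 186680 at d15. KRT8 and KRT18 of the luminal list were at 7955 and 7357 at d0. The defining leukocyte genes PTPRC and CD3E and the endothelial gene CDH5 had at most about 1 normalised read in any library, and adipocyte markers ADIPOQ and LEP did not reach a mean above 10.9. Some members of these lists were nevertheless detected: the summed level of 4 endothelial markers, led by KDR, was 81.1 to 105 in the d0 libraries and 268 to 289.7 at d15, although PECAM1 of the same list was lower on all 6 days (41.3 at d0 and 9.06 at d15). The summed level of 5 adipocyte markers, led by FABP4, was 22.8 to 32.0 at d0 and 67.9 to 272 at d7, and CD68 of the leukocyte list was at 371 at d0 and 803 at d4; their part in the results was not tested.

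As background, cells build cholesterol from acetyl-CoA. The mevalonate pathway makes isoprenoid units, which are joined into farnesyl and geranylgeranyl diphosphates. Squalene is then formed, oxidised, closed into a ring and trimmed to cholesterol. Fatty acids start from the same acetyl-CoA, are extended by fatty acid synthase, and are elongated and desaturated afterwards. The SREBP factors, encoded by SREBF1 and SREBF2, are held in the endoplasmic reticulum by SCAP and INSIG proteins while sterols are plentiful, and are released to activate most of these genes when sterols run low. Growing cells draw on both pathways for membranes.

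The stretches of DNA just before the start sites are shown for 5 of the genes. Of these, 4 were picked from the 22 genes lower at d15, in 3 of the 4 role groups, and all 4 hold the CCAAT letters described below. The other, SREBF2, is shown because it alone held the letters searched as a sterol element. Start sites were listed for 27 of the 31 genes in the RefSeq promoter table (GRCh38.p14); ACAT2, FDFT1, SQLE and FASN had no entry. In the 250 bases before the start sites, CCAAT, read on both strands and known as the letters bound by NF-Y, was found in 19 of the 27 genes (70.4%), against 37% of all 27305 genes listed. It was absent for ELOVL6, PMVK and SREBF1, called lower at d15, and present for SREBF2 and STARD4, called higher at d15. The GC box GGGCGG, the letters bound by SP1, was found in 25 of the 27 (92.6%), against 46.2% of all genes. The 31 genes are all among the 13343 genes expressed highly enough to be tested, whereas the shares of all genes are over every gene listed. A share over the tested genes alone was not taken. The sterol regulatory element in the form TCACNCCAC was found in 1 of the 27 (3.7%), SREBF2, against 1.09% of all genes. The E-box CACGTG was found in 3 (11.1%), ELOVL5, INSIG1 and SCAP, against 7.73%. These are letter matches in 1 window and not binding sites. Elements outside the window were not looked at, and neither were other forms of an element inside it. A gene without a match can therefore still hold a sterol element. In the lines below, capitals mark the CCAAT letters, or ATTGG where they lie on the other strand, and for SREBF2 the sterol element; the stretches for the other 4 genes were limited to bases outside all annotated exons.
HMGCS1 (chr5:43313513-43313662, minus strand): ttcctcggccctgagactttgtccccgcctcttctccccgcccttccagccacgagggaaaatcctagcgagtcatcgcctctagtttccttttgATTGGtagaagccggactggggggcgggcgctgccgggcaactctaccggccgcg
FDPS (chr1:155308616-155308747, plus strand): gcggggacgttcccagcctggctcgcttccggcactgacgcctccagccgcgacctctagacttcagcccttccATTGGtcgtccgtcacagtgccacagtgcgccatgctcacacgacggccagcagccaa
ACLY (chr17:41919023-41919272, minus strand): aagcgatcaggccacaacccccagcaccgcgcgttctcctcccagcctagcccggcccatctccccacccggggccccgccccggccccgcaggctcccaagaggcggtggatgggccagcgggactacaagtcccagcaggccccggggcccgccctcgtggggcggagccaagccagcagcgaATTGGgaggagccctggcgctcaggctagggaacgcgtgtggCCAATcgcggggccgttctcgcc
INSIG1 (chr7:155297628-155297775, plus strand): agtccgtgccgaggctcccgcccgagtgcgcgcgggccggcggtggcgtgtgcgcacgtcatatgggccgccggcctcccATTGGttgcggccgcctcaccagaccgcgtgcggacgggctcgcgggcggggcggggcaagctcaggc
SREBF2 (chr22:41832962-41832990, plus strand): tgacgcgccaTCACCCCACgcaccgcttc

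Across the time course the 31 genes did not move steadily in 1 direction. Of them, 18 had their highest mean at d10, and 20 had their lowest mean at d15; 14 were both called higher than d0 at d10 and called lower at d15. Differences between days were tested with limma on log2(value + 1) over the 13343 genes with a mean of at least 10, all 31 included, and a gene was called at an adjusted p under 0.05 (Benjamini-Hochberg over all genes tested in a comparison). Against d0 at d1, 15 of the 31 were called higher and 8 lower, beside 31.3% and 28.5% of all genes tested. At d4, 9 were higher and 17 lower (36.9% and 35.3% of all genes). At d7, 4 were higher and 23 lower (34.6% and 32.6% of all genes). At d10 the balance turned, with 20 higher and 5 lower (37% and 30.7% of all genes). Leaving out library 1 of d0 or library 1 of d10 left 3 lower genes on that day. At d15 the test called 5 higher and 22 lower (39.2% and 37.3% of all genes), 8 of them lower by at least 2-fold, beside 8.66% of all genes. At d20, 6 were higher and 9 lower (32.5% and 30.2% of all genes). Large changes into d10 and d15 were not particular to the 31 genes. Over all genes tested, the quartiles of the log2 difference were -0.38 and 0.34 from d7 to d10 and -0.50 and 0.50 from d10 to d15. They were only -0.14 and 0.15 from d1 to d10 and -0.19 and 0.19 from d10 to d20. What sets these days apart was not tested.

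**Figure D1:**
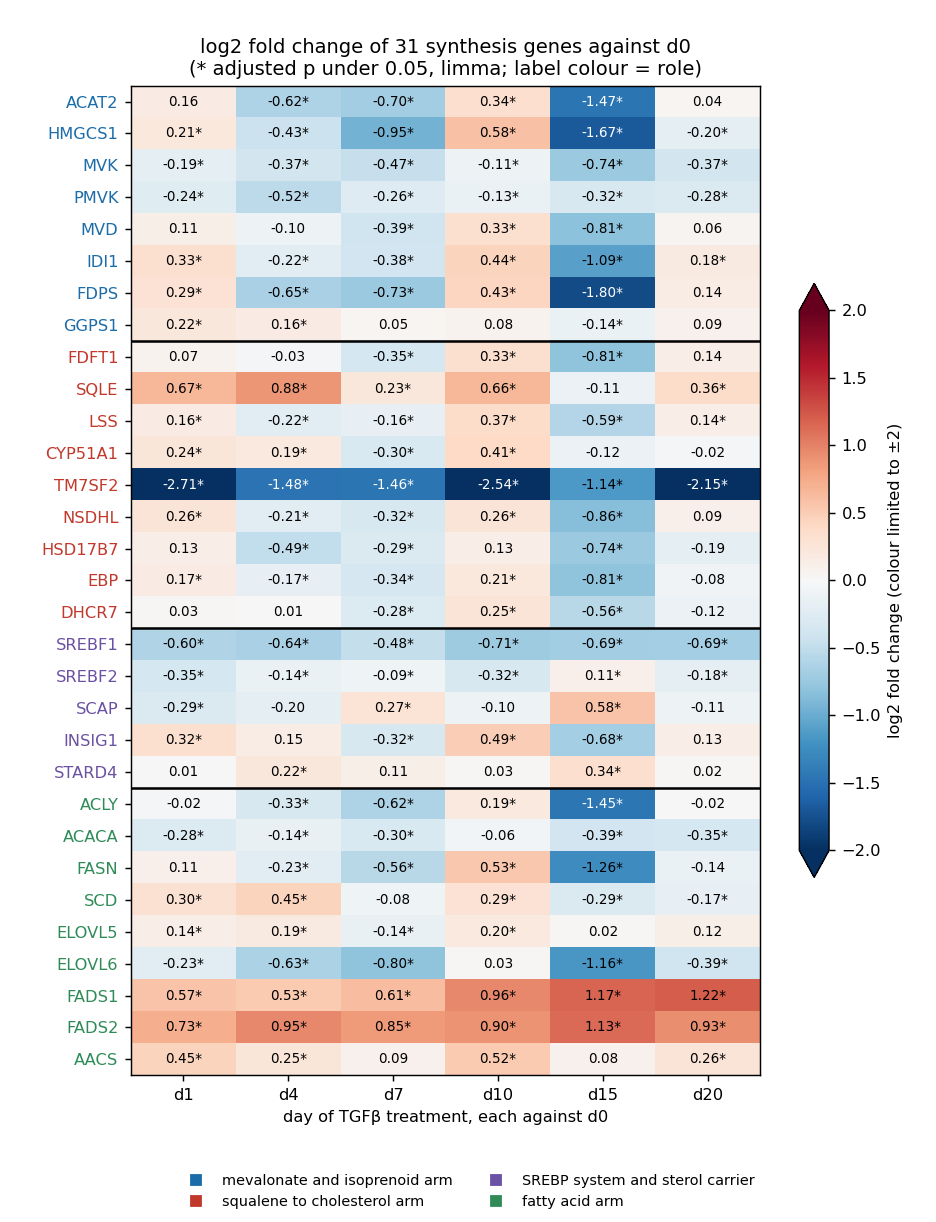
Log2 fold change of each of the 31 genes (rows, label colour by role group) on each treated day against d0 (columns), from limma, with an asterisk at an adjusted p under 0.05. The column of d15 is mostly blue and that of d10 mostly red, while FADS1 and FADS2 are red and TM7SF2 and SREBF1 blue on all 6 days; with other scalings of the libraries 5 of the 15 red calls at d1, 4 of 9 at d4, 4 of 20 at d10, 1 of 5 at d15 and 2 of 6 at d20 changed sign.

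The median log2 fold change of the 31 genes was positive at d1 and d10, with 0.14 and 0.26, negative at d4, d7 and d15, with -0.17, -0.30 and -0.68, and near 0 on d20, with -0.015, whereas the median over all genes tested lay between -0.00047 and 0.031. The calls depended on how libraries were scaled. Both rescaling to a common total and quantile normalization moved the median of all genes downward on each day, so that downward calls could hardly be lost, and none was; after rescaling, the genes called lower rose in number from 5 to 10 at d10 and from 9 to 17 at d20. Of the 15 upward calls at d1, 5 were called higher under both other scalings (IDI1, SQLE, FADS1, FADS2 and AACS) and 5 changed sign under at least 1 of them (HMGCS1, LSS, EBP, SCD and ELOVL5). Of the 20 at d10, 10 were called higher under both, and 4 changed sign (EBP, ACLY, SCD and ELOVL5). Rescaling to the same total moved the median of all genes itself by -0.14 to -0.20 on the log2 scale; relative to that median the 31 genes had a median of 0.14 at d1 and 0.23 at d10 under both that scaling and the deposited one. With quantile normalization these were 0.048 and 0.14.

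**Figure D2:**
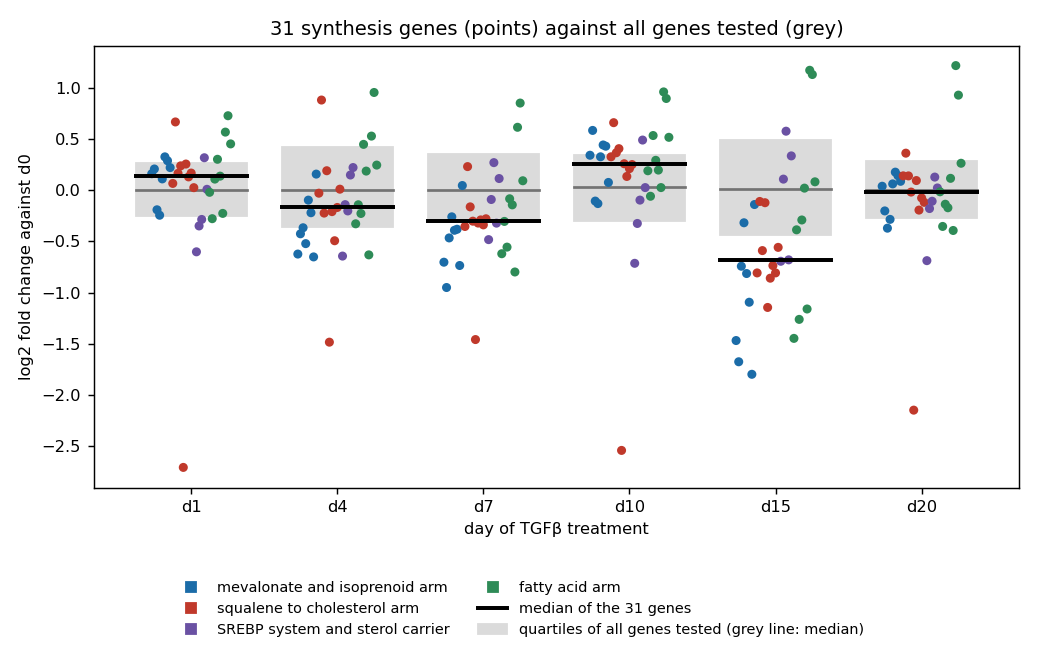
Log2 fold change against d0 (vertical axis) of the 31 genes (points, colour by role group) on each treated day, with their median as a black bar and the quartiles and median of all 13343 genes tested in grey. The median of the 31 genes lies below the lower quartile of all genes at d7 and d15, at -0.30 and -0.68, and inside the quartiles on the other days; the sign at d1 changes with the scaling.

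Genes of cell division moved on some of the same days. All 12 proliferation markers were lower at d4, d7 and d15, with a median log2 fold change of -0.71, -0.49 and -1.77, and 3 were lower at d10 (median -0.11). Their summed level was 68848 to 71317 in the d0 libraries, 40965 to 42899 at d4, 63176 to 64114 at d10, 22235 to 22834 at d15 and 66490 to 69254 at d20. Thus at d10 the proliferation sum was 90.2% of its d0 mean and the sum of the 31 synthesis genes 125%, and at d15 these were 32.0% and 69.5%. On d1 and d4 the sums went apart, with 82.0% and 59.2% for proliferation and 115% and 110.3% for the synthesis genes. The library totals also rose, from 1.83e+07 to 1.86e+07 normalised reads at d0 to 2.09e+07 to 2.12e+07 at d1. They were 2.10e+07 to 2.13e+07 at d4 and 2.15e+07 to 2.16e+07 at d10. The rise of the synthesis sum at d1 and d4 cannot be told apart from this rise. Its size at d10 depends on the scaling. Sums as a share of the totals were not taken. A sum is led by its most abundant genes. At d4 SCD and SQLE were higher by 0.45 and 0.88 (log2), SCD with a changed sign under quantile normalization. Yet 17 of the 31 genes were lower and 9 higher on that day, with a median of -0.17. The mevalonate and isoprenoid sum was 75.4% of d0, the squalene to cholesterol sum 126% and the fatty acid sum 115%. In bulk RNA, fewer cells that express a gene and less RNA of that gene per cell cannot be told apart. The part of cell division in the changes of the synthesis genes was not tested.

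**Figure D3:**
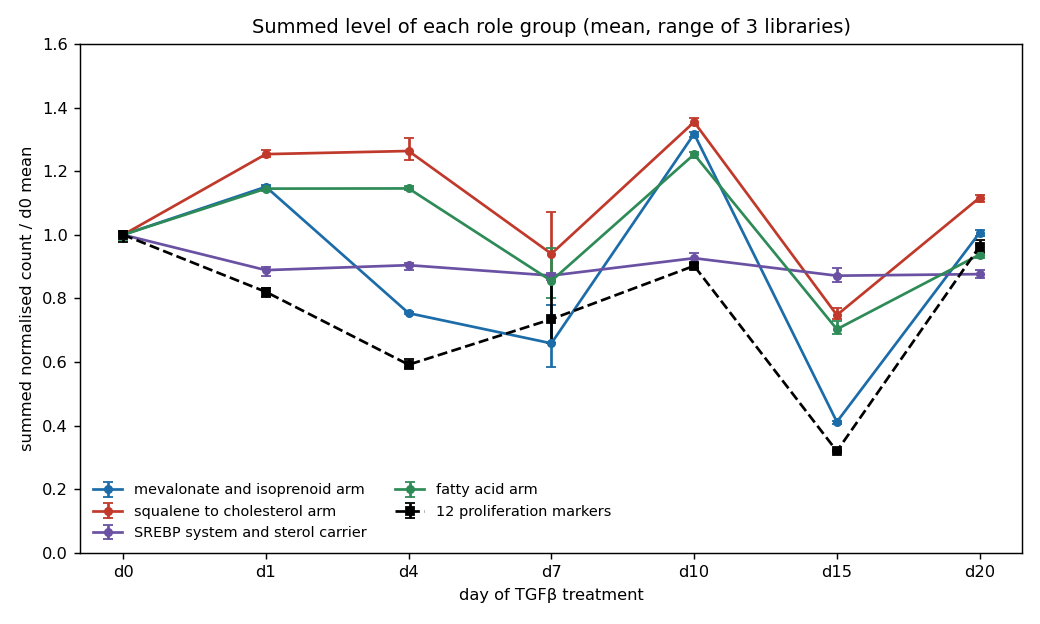
Summed normalised read count of each role group and of the 12 proliferation markers, divided by its d0 mean (vertical axis), by day; points are means and bars the range of 3 libraries. At d15 the mevalonate and isoprenoid sum was 41.2% of d0 and the proliferation sum 32.0%, whereas the SREBP group stayed at 87.1%. Each sum is led by its most abundant genes, and rises at d1 depend on the scaling for single genes. Library totals were above those of d0 on every treated day, so that rises of the sums depend on the scaling too.

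The mevalonate and isoprenoid arm showed the deepest dip. At d15 all 8 genes were lower than at d0, with a median log2 fold change of -0.95 and a range of -1.80 to -0.14. FDPS, the enzyme that makes farnesyl diphosphate, had 7888, 7936 and 7861 normalised reads in the d0 libraries, 9727, 9578 and 9614 at d1, 5069, 5024 and 4994 at d4 and 4072, 4268 and 6145 at d7. It had 10543, 10768 and 10595 at d10, 2311, 2246 and 2261 at d15 and 8647, 8757 and 8736 at d20. Every d10 library lay above, and every d4, d7 and d15 library below, the d0 range. The fold change at d15 was -1.80 on the log2 scale (SE 0.086, adjusted p = 4.7e-14, limma), and at d20 it was 0.14 (adjusted p = 0.159, limma). The human genome holds 10 annotated FDPS pseudogenes, with which reads can be shared.

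HMGCS1, the synthase that makes HMG-CoA, followed the same course. Its values were 5978, 5907 and 6056 at d0, 6771, 6889.9 and 7054 at d1, 4433, 4434 and 4493 at d4 and 2695, 2864 and 3846 at d7, then 9015, 8982 and 8892 at d10, 1889, 1821 and 1911 at d15 and 5149, 5151 and 5299 at d20. The d10 libraries were the highest and the d15 libraries the lowest of all, with no overlap with d0. Against d0 the log2 fold change was 0.58 at d10 (SE 0.075) and -1.67 at d15 (SE 0.075, adjusted p = 1.5e-14, limma); the smaller rise at d1, 0.21, changed sign under another scaling. ACAT2, the cytosolic thiolase that joins acetyl-CoA units before HMGCS1 acts, had 1497, 1635 and 1661 at d0, 2036, 2064 and 1969 at d10, 589.6, 599.7 and 543 at d15 and 1568, 1704 and 1651 at d20. Its exons overlap those of TCP1 and SOD2 on the opposite strand, and the strand of the libraries is not stated, so that reads of these genes cannot be told apart there.

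IDI1, the isomerase of the isoprenoid units, rose to 4509 ± 91.1 at d10 from 3319 ± 67.4 at d0 and fell to 1555 ± 7.07 at d15, a log2 fold change of -1.09. MVD, the decarboxylase before it, went from 2498 ± 105 at d0 to 1421 ± 32.6 at d15 (log2 -0.81). The kinases MVK and PMVK behaved otherwise: both were called lower on all 6 days, MVK by between 0.11 at d10 and 0.74 at d15 and PMVK by between 0.13 at d10 and 0.52 at d4 (log2). GGPS1, which makes geranylgeranyl diphosphate, had day means of 847.1 to 1088 normalised reads, with log2 changes of 0.22 at d1 and -0.14 at d15; its rise at d4 changed sign under another scaling. GGPS1 exons overlap those of TBCE and, on the other strand, ARID4B.

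**Figure D4:**
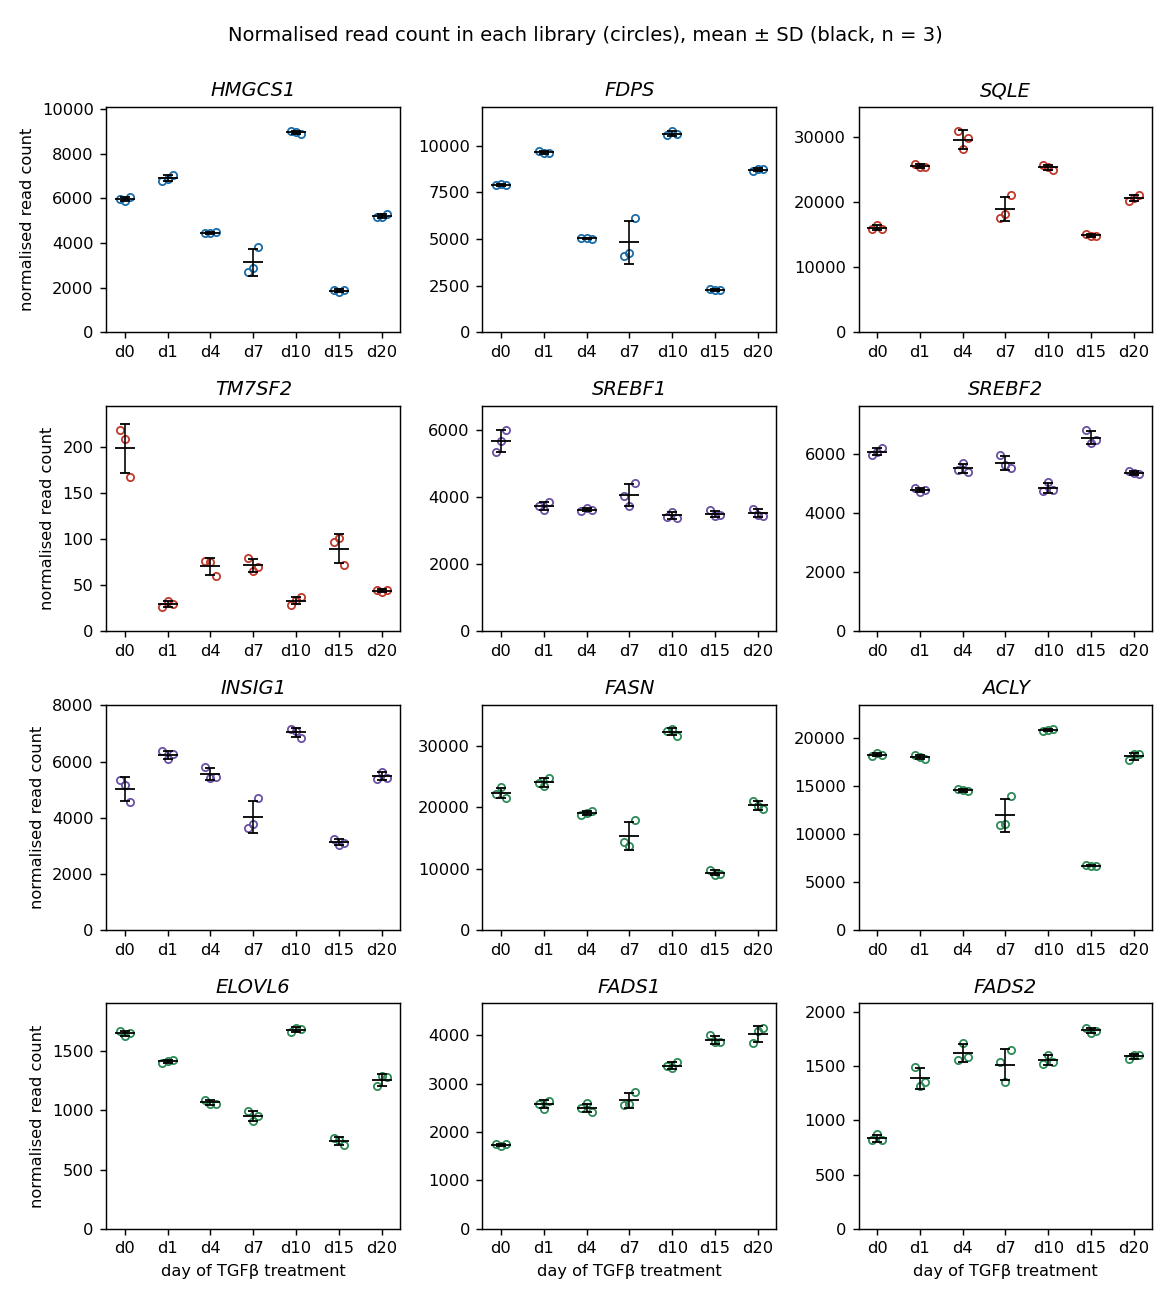
Normalised read count (vertical axis, from 0) in each library (circles) by day for 12 of the genes, with mean ± SD in black (n = 3). FDPS, HMGCS1, ACLY and FASN peak at d10 and are lowest at d15, FADS1 and FADS2 stay above d0 throughout, and the third d7 library is set apart from the other two for FDPS, HMGCS1, INSIG1, FASN and ACLY.

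In the arm from squalene to cholesterol, 7 of 9 genes were lower at d15 and none higher, with a median log2 fold change of -0.74, whereas 7 of 9 were higher at d10 with a median of 0.26. FDFT1, which makes squalene, had 10837 ± 113 at d0, 13586 ± 34.7 at d10 and 6197 ± 228 at d15. NSDHL, a dehydrogenase of sterol demethylation, had 1298, 1407 and 1368 at d0, 1644, 1572 and 1655 at d10, 774, 729.9 and 741 at d15 and 1437, 1490.3 and 1419.9 at d20. All d15 libraries of NSDHL lay below all others of the time course, and its log2 fold change there was -0.86 (SE 0.061, adjusted p = 3.3e-11, limma). LSS (the cyclase), EBP (the isomerase), HSD17B7 (a ketoreductase) and DHCR7 (a sterol reductase) were lower at d15 by 0.59, 0.81, 0.74 and 0.56 on the log2 scale. CYP51A1, the lanosterol demethylase, was called lower at d7 (-0.30) and higher at d10 (0.41); at d15 its value was -0.12 with an interval of -0.25 to 0.0088.

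SQLE, the epoxidase that oxidises squalene and a rate-limiting enzyme of this arm, differed from its neighbours. It had 15909, 16507 and 15825 normalised reads at d0, 25836, 25379 and 25348 at d1, 30913, 28109 and 29834 at d4 and 17612, 18109 and 21054 at d7. It had 25769, 25408 and 25010.2 at d10, 15162, 14819.7 and 14727 at d15 and 20182, 20692 and 21122 at d20. All treated libraries outside d15 lay above all d0 libraries, and the d15 libraries lay below them. The log2 fold change was 0.88 at d4 (SE 0.050, adjusted p = 1.1e-12, limma), when 5 of the 9 genes of the arm were lower. At d15 it was -0.11 with an interval of -0.21 to -0.0062, and adjusted p = 0.0507 by limma. SQLE had no annotated exon overlap with another gene.

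TM7SF2, a sterol reductase that shares its step with another enzyme, had the largest log2 change against d0 among the 31 genes. It had 219, 209.5 and 168 normalised reads at d0, 26.1, 32.8 and 29.8 at d1, 76.8, 75.0 and 59.7 at d4 and 79.2, 65.7 and 69.8 at d7. It had 28.9, 34.0 and 37.2 at d10, 96.9, 101 and 71.5 at d15 and 44.5, 42.1 and 45.0 at d20. The order of its treated days was nearly the opposite of that of FDPS and HMGCS1, with d1 and d10 lowest and d15 highest of the treated days, and no treated library reached the d0 range. The log2 fold change was -2.71 at d1 (SE 0.15, adjusted p = 2.2e-12, limma) and -1.14 at d15. Annotated exons of TM7SF2 and VPS51 overlap on the same strand, so that part of the reads can belong to either gene.

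In the SREBP system the genes did not move together. SREBF1, whose protein acts mainly on fatty acid genes, had 5329.9, 5657 and 5997 at d0, 3728, 3614 and 3846 at d1, 3593, 3674 and 3599 at d4 and 4041, 3729 and 4403 at d7. At d10 it had 3401, 3561 and 3387, at d15 3602, 3428 and 3463 and at d20 3652, 3449 and 3438. All 18 treated libraries lay below the 3 untreated ones, and the log2 fold change stayed between -0.71 at d10 and -0.48 at d7. It did not follow the peak at d10 or the dip at d15 that most of the other genes had. From d10 to d15 it differed by 0.020 (interval -0.084 to 0.12).

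The protein of SREBF2 acts mainly on cholesterol genes, and its promoter window held the letters searched as a sterol element, shown above. SREBF2 had 5959, 6076 and 6205 at d0, 4849, 4707 and 4768 at d1, 5448, 5701 and 5399 at d4 and 5978, 5636 and 5525 at d7. At d10 it had 4750.0, 5040.3 and 4781, at d15 6816, 6376 and 6477 and at d20 5439.7, 5363 and 5310.3. Thus its lowest values were at d1 and d10 and its highest at d15, the reverse of HMGCS1 and FDPS. The log2 fold change was -0.35 at d1 (adjusted p = 5.1e-08, limma) and 0.11 at d15 (adjusted p = 0.0113, limma), the latter of which changed sign under another scaling. SCAP, the escort of the SREBPs, also was highest at d15, at 1615 ± 43.9 against 1083 ± 11.8 at d0 (log2 0.58), and lowest at d1, at 889 ± 26.6.

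INSIG1, the sterol-sensitive anchor and itself a target of the SREBPs, sided with the enzymes. It had 5360.1, 5150.2 and 4557 at d0, 6371, 6095 and 6266 at d1, 5822, 5418 and 5433 at d4 and 3649, 3763 and 4698 at d7. It had 7168, 7102 and 6843 at d10, 3255, 3021 and 3114 at d15 and 5369.8, 5644 and 5422 at d20. The d10 libraries were above and the d15 libraries below every d0 library, with log2 fold changes of 0.49 (SE 0.069) and -0.68 (SE 0.069, adjusted p = 1.2e-08, limma). STARD4, a carrier of cholesterol between membranes, was called higher at d4 (0.22) and d15 (0.34).

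The fatty acid arm split in 2. ACLY, which releases acetyl-CoA from citrate, had 18098, 18496 and 18265 at d0, 18228, 18024 and 17844 at d1, 14728, 14539 and 14449 at d4 and 10946, 11026 and 13966 at d7. It had 20781, 20841 and 20967 at d10, 6806, 6626 and 6704 at d15 and 17684, 18308 and 18298 at d20. The d15 libraries lay below all others, with a log2 fold change of -1.45 (SE 0.058, adjusted p = 2.1e-15, limma); the rise at d10, 0.19, changed sign under another scaling. FASN, the fatty acid synthase, had 22111, 23257 and 21556 at d0, 32414, 32782 and 31663 at d10, 9766, 9035 and 9137 at d15 and 20995, 20192 and 19685 at d20. Its d10 libraries lay above and its d15 libraries below all d0 libraries, with log2 fold changes of 0.53 and -1.26 (adjusted p = 3.9e-07 and 2.1e-13, limma). ELOVL6, which elongates palmitate, had 1673, 1632 and 1652 at d0 and 993, 907 and 952 at d7. Its d10 libraries held 1660.0, 1699 and 1689, those of d15 767, 747 and 705 and those of d20 1202, 1289 and 1286. It was called lower on 5 of the 6 days, and at d10 its log2 value was 0.026 with an interval of -0.061 to 0.11. ACACA, the carboxylase that makes malonyl-CoA, changed less, from 5429 ± 95.1 at d0 to 4155 ± 144 at d15.

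FADS1 and FADS2, the desaturases of polyunsaturated fatty acids, were the 2 genes called higher on all 6 days, under all 3 scalings. FADS1 had 1749, 1711 and 1746 at d0, 2587, 2482 and 2649.7 at d1, 2496, 2593 and 2423 at d4 and 2566, 2577 and 2836 at d7, then 3359.8, 3320.4 and 3448 at d10, 4009, 3862 and 3854 at d15 and 3847, 4100.3 and 4161 at d20. FADS2 had 818, 874 and 816 at d0, 1497, 1313 and 1349.7 at d1, 1561, 1718 and 1586 at d4 and 1534, 1358 and 1646 at d7, then 1523, 1605 and 1540.1 at d10, 1856, 1809 and 1824 at d15 and 1562, 1606 and 1606 at d20. No treated library of either gene overlapped d0, and both were at or near their highest at d15, when ACLY, ACACA, FASN, SCD and ELOVL6 were lowest. The log2 fold change of FADS1 reached 1.22 at d20 (SE 0.042, adjusted p = 2.4e-16, limma) and that of FADS2 1.13 at d15 (SE 0.059, adjusted p = 1.7e-13, limma). The exons of the 2 genes overlap each other on opposite strands, and those of FADS2 overlap FEN1, a replication gene, on the same strand.

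SCD, the desaturase that makes oleate, had 64861, 63148 and 62132 at d0, 87273, 85929.7 and 86079.8 at d4, 77993, 75866 and 78921 at d10 and 53860.1, 51361 and 50309 at d15. It was called higher at d4 by 0.45 and lower at d15 by 0.29 on the log2 scale, but the values at d1, d4 and d10 changed sign under another scaling. ELOVL5, an elongase of polyunsaturated fatty acids, moved by no more than 0.20 (log2) on any day. AACS, which activates acetoacetate for lipid synthesis, was called higher at d1, d4, d10 and d20, with 925 ± 24.5 at d0 and 1324 ± 46.4 at d10.

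Between neighbouring treated days the turns were compared directly. From d1 to d4, 7 of the 31 genes were higher and 16 lower (32.9% and 32% of all genes tested), and from d4 to d7, 3 were higher and 16 lower (25.5% of all genes in each direction). From d7 to d10, 24 rose and 4 fell (36.2% and 35.2% of all genes). From d10 to d15, 24 fell and 6 rose (40.5% and 39.3% of all genes), and 12 fell by at least 2-fold, beside 10.2% of all genes. From d15 to d20, 20 rose and 5 fell (37.7% and 36.3% of all genes), and 6 rose by at least 2-fold, beside 7.55% of all genes. The 6 were ACAT2, HMGCS1, IDI1, FDPS, ACLY and FASN. The 6 that rose from d10 to d15 (TM7SF2, SREBF2, SCAP, STARD4, FADS1 and FADS2) hold both desaturases of polyunsaturated fatty acids and 3 of the 5 genes of the SREBP group. The steps share libraries with each other and are not independent.

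From d10 to d15 the largest steps were those of HMGCS1, -2.26 (interval -2.41 to -2.10, adjusted p = 1.9e-16, limma), and of FDPS, -2.23 (interval -2.41 to -2.05), on the log2 scale. FDPS regained 1.94 from d15 to d20 (interval 1.76 to 2.12) and HMGCS1 1.47 (interval 1.32 to 1.63). At d20, 16 of the 31 genes were not called against d0. Those still lower were HMGCS1, MVK, PMVK, TM7SF2, SREBF1, SREBF2, ACACA, SCD and ELOVL6, and those higher under all 3 scalings were SQLE, FADS1 and FADS2.

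**Figure D5:**
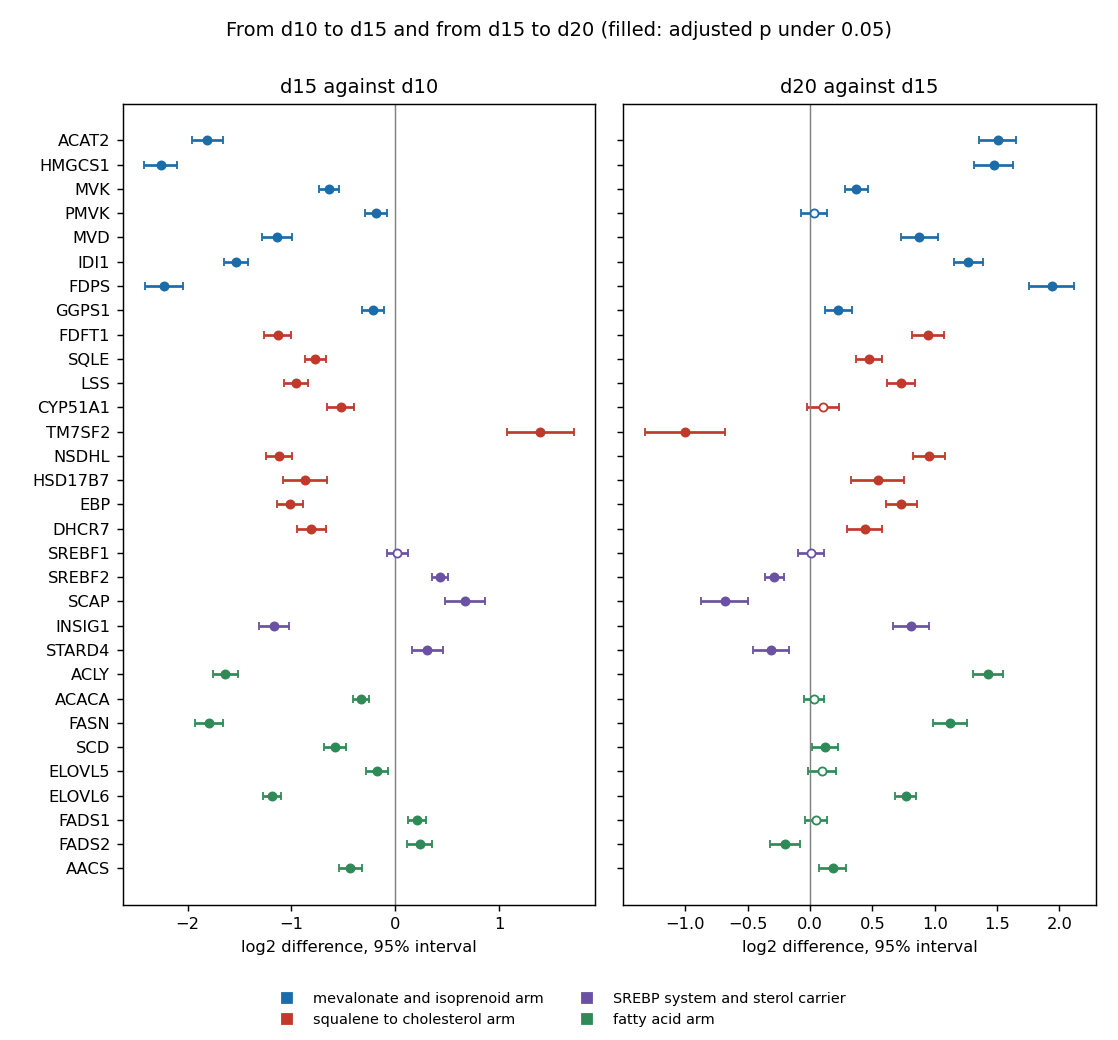
Log2 difference of each of the 31 genes from d10 to d15 (left) and from d15 to d20 (right) on the horizontal axis, with 95% intervals from limma; filled points passed an adjusted p under 0.05. On the left 24 filled points lie below 0 and on the right 20 above 0, with TM7SF2, SREBF2, SCAP, STARD4 and FADS2 on the opposite side in both panels.

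One library bore on the values at d7. Over all genes tested, the root mean square log2 difference between libraries of a timepoint was 0.214 to 0.243, but 0.457 and 0.472 for the third d7 library against the other two, and over the 31 genes 0.0438 to 0.117 against 0.296 and 0.311. In 23 of the 31 genes this library was the highest of the d7 libraries, and in 20 it lay nearer to the d0 mean than both others did. FDPS had 4072, 4268 and 6145 in the d7 libraries and SCAP 1514, 1459 and 1007. The proliferation sum of the third library, 61229, was the highest at d7, and the lowest was 46497. Without it, 5 of the 31 genes were higher and 23 lower at d7 (36.8% and 34.4% of all genes), and their median log2 fold change was -0.40 in place of -0.30.

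Other genes of the same pathways were read beside the same shares of all genes at d15, 39.2% higher and 37.3% lower. Of 15 further sterol synthesis and SREBP-processing genes, 7 were lower and 3 higher at d15, with a median log2 fold change of -0.060, and 6 were higher and 4 lower at d10. COQ2, of coenzyme Q synthesis, fell from 521 ± 23.1 at d0 to 218 ± 15.5 at d15. MSMO1, the sterol methyl oxidase listed under its older symbol SC4MOL, resembled SQLE: it went from 4625 ± 421 at d0 to 10245 ± 483 at d4 (log2 1.15, SE 0.052) and was at 4925 ± 121 at d15. Of 22 further fatty acid genes tested, 9 were lower and 6 higher at d15. FADS3 rose from 2129.8 ± 55.8 to 7003 ± 379 at d15, and ACSL1 fell from 4764 ± 106 to 1406 ± 43.2 at d10. SCD5 first rose from 199 ± 6.21 at d0 to 331 ± 14.6 at d1 and 444 ± 30.6 at d4. Its d7 libraries held 803, 778 and 242, and it was at 67.9 ± 13.6 at d20.

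Of the genes of sterol sensing by LXR, storage and export, 6 of 9 tested were higher and 1 lower at d15 (median log2 fold change 0.70), beside 39.2% and 37.3% of all genes. ABCG1, a sterol exporter and LXR target, had 55.2, 57.7 and 71.2 at d0, 314, 314 and 306 at d1, 719, 701 and 713 at d4 and 516, 448 and 384 at d7. It had 159, 205 and 149.6 at d10, 788, 856 and 821 at d15 and 467, 405 and 469 at d20. It was highest at d4 and d15 and, among treated days, lowest at d10, where HMGCS1 was highest, and its log2 fold change at d15 was 3.73 (SE 0.11, adjusted p = 1.4e-17, limma). NPC2, a lysosomal sterol carrier, rose from 1903 ± 50.4 to 4647 ± 66.3 at d4, and NR1H3, which encodes LXRα, fell from 248 ± 23.3 to 112 ± 3.79 at d10. Of 14 fatty acid oxidation genes tested, 12, 9, 8, 14, 9 and 12 were lower at d1, d4, d7, d10, d15 and d20, beside 28.5% to 37.3% of all genes. CPT2 and ACADM fell to 362 ± 7.43 and 562 ± 22.1 at d4 from 914 ± 44.6 and 1351 ± 18.4, whereas CPT1A, the gate of mitochondrial uptake, rose from 107 ± 7.58 to 295 ± 16.1 at d15.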

How the data were processed

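Total RNA of HMLE cells was sequenced in 21 libraries, 3 at each of 7 timepoints. The authors deposited 1 table of signal values, read counts per gene divided by a size factor per library; the submitters' processing notes name STAR 2.7, Salmon 1.4 and the build hg19, and the annotation and strand are not given in the sources used here. Multiplying by the size factors (0.9434 to 1.179) gave whole reads within 0.02 read for 100% of values in every library. The factors were within 0.00038 of median-of-ratios factors. Library numbers follow the order of the columns, which name only the timepoint.

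Genes with a mean of at least 10 (13343 of 23201) were fitted with limma 3.58.1 in R 4.3.3 (trend) on log2(value + 1), with all timepoints in 1 model and Benjamini-Hochberg adjustment over all genes in each comparison. The pseudocount understates changes of low genes. P-values measure the spread between these libraries. The fit recovered known changes in simulated data. These changes were placed at d15 alone, up and down alike, with the same dispersion in all libraries. The simulation therefore cannot bear on the third d7 library or on the scaling. Alternatives were a pseudocount of 10, no filter, 2 other scalings, pairs of timepoints alone, a 2-fold limit, leaving out each library, and edgeR 4.0.16 and DESeq2 1.42.0 on the recovered reads. Total recovered reads were 18847917 to 22667754 per library.

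The 31 genes, and the 12 other lists, were chosen with earlier results of these data known. Values in every library are given for genes called on at least 1 day with the largest absolute change against d0, at least 2 in each role group, and for SREBF1, SREBF2 and INSIG1. From each other list up to 3 genes with the largest called change and a mean of at least 50 were named; PTPRC, CD3E, CDH5, ADIPOQ and LEP were named as defining markers after their values were seen. Exon overlaps were read from GENCODE release 29 on GRCh38, not the build of the counts: exons of 16 of the 31 genes overlap another gene, 8 of them a protein-coding one, and 6 (FDPS, CYP51A1, IDI1, HSD17B7, SCD and AACS) have pseudogenes by symbol. Start sites and promoter sequences are from RefSeq on GRCh38.p14. Some genes of these pathways are not reported here.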

Additional observations from a re-analysis of the deposited data

Results flagged for a closer look

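Of the 31 genes, 19 passed the test in opposite directions against d0 on different days. The genes and the days were picked for these opposite calls, so the differences between the days below are a description and no further support. All these comparisons share the d0 libraries, so the difference between the 2 treated days, which does not use d0, is the value given.

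Of the 19, 14 were higher than d0 at d10 and lower at d15. From d10 to d15 the mevalonate genes HMGCS1, FDPS, ACAT2, IDI1 and MVD changed by -2.26, -2.23, -1.81, -1.53 and -1.14 on the log2 scale. The sterol genes FDFT1, NSDHL, EBP, LSS and DHCR7 changed by -1.13, -1.12, -1.02, -0.95 and -0.81. INSIG1 changed by -1.17, and the fatty acid synthesis genes FASN and ACLY by -1.79 and -1.64.

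From d1 to d15, GGPS1 changed by -0.36, while SREBF2 and SCAP went the other way, by 0.46 and 0.86. SCD changed by -0.74 from d4 to d15. CYP51A1 and ELOVL5 changed by 0.71 and 0.34 from d7 to d10. For HMGCS1, IDI1, GGPS1, LSS, CYP51A1, EBP, SREBF2, ACLY, SCD and ELOVL5 at least 1 value called higher than d0 changed sign under another scaling of the libraries, and some values that were not called changed sign for other genes.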

How the results depend on the processing

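Among recomputed counts of genes, 268 stayed within 1.5 times the reported one and 40 did not. Of the recomputed values of single genes, 399 kept their direction and side of the threshold, while 2 lost the call and 2 reversed. These single values cover only part of the genes and days and do not measure how stable the upward calls are. With other scalings 5 of 15 upward calls at d1, 4 of 9 at d4 and 4 of 20 at d10 changed sign. At d15 and d20 these were 1 of 5 and 2 of 6. For the other gene lists 120 recomputed counts stayed and 24 did not; at d15, rescaling to a common total gave 11 of the 15 further sterol genes lower, and 15 of the 22 further fatty acid genes lower and 3 higher. After rescaling libraries to 1 common total, which moved the median of all genes by -0.20 to -0.14, on d1, d4, d7, d10 and d20 the genes higher than d0 numbered 5, 4, 2, 11 and 3, those lower on d10 and d20 numbered 10 and 17, and the medians from d1 to d20 were -0.056 (reversed), -0.37, -0.50, 0.032, -0.84 and -0.22. With quantile normalization 7 were higher and 13 lower at d1, 4 higher at d4, 11 higher and 8 lower at d10, 14 lower at d20 and 6 higher at d7 than at d4, with medians of -0.011 (d1, reversed), -0.29 (d4), 0.11 (d10) and -0.15 (d20). SCD at d4 reversed to -0.71 with quantile normalization and ELOVL5 at d10 to -0.030 with rescaling. On the recovered reads edgeR called 8053 to 10286 and DESeq2 7615 to 9975 of all genes against d0 on the 6 days. With edgeR the medians were 0.12 (d1), -0.20 (d4) and 0.22 (d10). With only the libraries compared, 10 were higher at d20 and 9 lower at d7 than at d4. With a 2-fold limit 0 were higher and 1 lower at d1, d4, d7 and d10, 2 and 8 at d15, and 1 and 1 at d20; between consecutive days 1 and 0 (d4 against d1), 0 and 0 (d7 against d4), 4 and 1 (d10 against d7), 1 and 12 (d15 against d10), and 6 and 1 (d20 against d15) were higher and lower. The cause was not tested. Leaving out 1 library gave 3 to 4 genes lower at d10 against 5 with all libraries (3 without d0 library 1 or d10 library 1), 13 to 22 lower at d7 than at d4 (22 without d7 library 3), and medians of 0.12 to 0.17 at d1, -0.19 to -0.14 at d4 and 0.25 to 0.28 at d10. No paired analysis was possible because libraries are named in the table by timepoint alone. The number of libraries, 3 per day, limits the precision.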
